A study of Danio rerio with 49 samples.

Results

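DNA copy number was compared between genotypes in the G1 nuclei of zebrafish (*Danio rerio*) embryos at 24 hours post fertilisation (24 hpf). The libraries were chosen by their labels, as G1 nuclei of 24 hpf embryos of either genotype. These were 8 of the 49 libraries of the series, 4 from embryos homozygous for the omf201 allele of *rif1* (*rif1* omf201/omf201) and 4 from wild type (WT) embryos. Both genotypes were of the Tab5 strain, with no treatment named, and labelled as the Prim-5 stage of the pharyngula period. Clutches were inspected for synchrony, and nuclei were stained with propidium iodide and sorted by DNA content. The protocol gives a somewhat later age than 24 hpf for the sorted embryos, and the 24 hpf of the labels is used here. The labels do not say what the omf201 change is, how many embryos or parents stand behind a sorted library, or whether the WT fish were siblings of the mutants. Replicate numbers are not tied to separate clutches either, so p-values measure only the spread between these samples, which may be technical.

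Rif1 is a protein of eukaryotic nuclei that directs protein phosphatase 1 to chromatin, where it opposes the kinases that fire replication origins, and it is known as a regulator of the order in which the genome replicates. A nucleus in G1 has not yet begun to replicate, so each sequence is present once per chromosome. Read counts from G1 DNA therefore vary along the genome with the copy number carried by the fish, with the match between their haplotypes and the reference genome, and with the bias of library preparation. Replication timing is read from S-phase DNA divided by G1 DNA, so G1 counts are the denominator of that measurement.

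The deposited values were whole reads per genomic window, without normalisation. There were 120082 windows on 25 chromosomes, at coordinates of the GRCz11 assembly, and 90.3% of them were 60 kb wide. Neighbouring windows usually start 10 kb apart, share most of their reads and are not independent. Each 24 hpf G1 library had 17.2 to 27.6 M counts (M, mega) over the 20460 windows that do not overlap. The mean window held 845 to 1354 counts, which gives a counting error of 2.72% to 3.44% for 1 window in 1 library. No window had under 148 counts in any library of the series. Intervals for counting error do not cover other sources, since reads were not tagged by molecule.

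Libraries of the same genotype resembled each other more than libraries of different genotypes. Over bins of 1 Mb, the chi-square per degree of freedom for a pair of libraries was 3.3 to 7.52 within WT and 2.5 to 5.78 within omf201. It was 6.76 to 11.8 between the genotypes, so the ranges within WT and between genotypes overlapped slightly. Every pair differed by more than sampling noise, and each library was counted as its own sample. The mean Pearson correlation of log2 counts across 20460 windows was 0.802 between WT libraries, 0.851 between omf201 libraries and 0.751 between genotypes. These correlations describe similarity only, since all libraries share the sequence and mappability of the genome.

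A few libraries stood apart in single regions. Of 1317 bins of 1 Mb, WT replicate 1 lay more than 0.1 in log2 count from the mean of the other WT libraries in 24 bins, 8 above and 16 below. On chromosome 22 there were 9 such bins, from 0.45 above to -0.31 below. The other WT libraries deviated in 7 to 13 bins and the omf201 libraries in 3 to 17. Among the latter, omf201 replicate 3 had 4 bins of chromosome 19, between 21000000 and 26000000, that lay -0.1 to -0.2 below the other omf201 libraries.

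In omf201, 4411 of the 120082 windows differed from WT in G1 counts, with 2297 higher and 2114 lower. They were called with edgeR's quasi-likelihood test at a Benjamini-Hochberg adjusted p under 0.05. This was 3.67% of the windows tested, or 1.91% higher and 1.76% lower, and the directions were close to balanced. A test without adjustment gave 19060 of the 120082 windows with p under 0.05. The 4 omf201 and the 4 WT libraries did not overlap in 3921 (88.9%) of the called windows, and in 10869 (9.05%) of all windows. The count fell whenever 1 library was left out, which also leaves fewer libraries to test. It was 3247 to 3761 without a WT library, and it fell most without 1 of 2 omf201 libraries. Without omf201 replicate 4 it was 2165 (1.8%), and without omf201 replicate 2 it was 2563 (2.13%). The number of higher windows was also moved by over 1.5 times without omf201 replicate 1, to 1505. DESeq2 called 2663 windows (2.22%).

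Most of these differences were small. The median size among called windows was 0.16 in log2 and the smallest was 0.094, against a median of 0.03 over all windows. Called windows ranged from -0.72 to 0.6. A difference of at least 0.2, a fold of 1.15, was found in 611 higher and 624 lower windows, together 28% of the calls. A fold of 1.25 or more, in either direction, was found in 5.58% of the calls. A fold of 1.49, close to the gain of 1 copy over a diploid pair in every cell, was reached by 2 higher windows, and 6 lower windows were at -0.58 or below. No called window reached a log2 of 1 or -1, the latter being the loss of 1 copy of a pair in every cell.

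**Figure D1:**
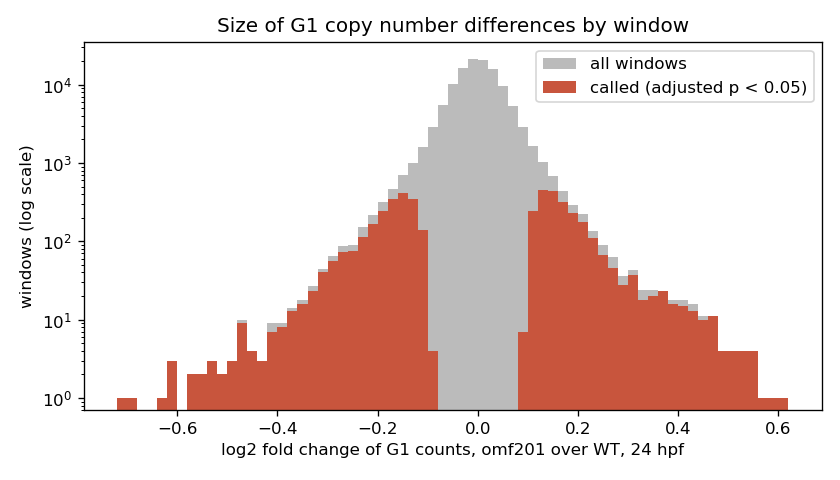
Number of windows (log scale) by log2 fold change of 24 hpf G1 counts, omf201 over WT. Grey bars are all 120082 windows and red bars the 4411 called by edgeR. Calls lie on both sides of 0, between -0.72 and 0.6, and are few beyond 0.32 in either direction.

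The called windows were spread unevenly along the genome, and neighbouring windows, which share reads, were not independent calls. Of 1356 bins of 1 Mb, 740 (54.6%) held no called window, whereas 103 bins (7.6%) held 50% of all calls. In 72 bins at least 20% of windows were called. The bin with the most calls was 2000000 to 3000000 on chromosome 10, where 72 of 91 windows were called and all 72 were lower in omf201. In the bin from 56000000 on chromosome 3, 50 of 88 windows were called, 49 of them lower. In some dense bins all calls were higher, such as 43 of 96 windows from 31000000 on chromosome 10 and 36 of 96 windows from 42000000 on chromosome 8. Others were lower or mixed, with 34 of 37 calls lower from 2000000 on chromosome 14, and 29 higher and 6 lower from 41000000 on chromosome 21. Near the end of chromosome 19, 34 of 98 windows from 46000000 and 31 of 74 windows from 47000000 were called, and all of these were lower.

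Joined where neighbouring starts lay at most 20 kb apart with 1 direction, the calls formed 1423 runs, 713 higher and 710 lower. The median run spanned 80 kb among the higher runs and 90 kb among the lower ones. The longest higher run spanned 290 kb and the longest lower run 530 kb. Single windows made up 550 of the runs. Windows are wider than the 20 kb used for joining, so neighbouring runs can overlap and share reads.

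By chromosome, the share of windows called was highest on chromosome 19, with 9.19% (292 higher and 119 lower). Chromosome 4 followed with 7.41%, chromosome 15 with 6.35% and chromosome 22 with 6%. It was lowest on chromosome 23, with 1.19%. Chromosome 19 had 3.49% at Bud, the earlier stage for which G1 libraries exist (10 hpf), where the share over all windows was 2.7%. Chromosome 4 had 12.2% at Bud and chromosome 22 had 7.21%.

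Calls were more frequent near chromosome ends and in windows that were wider or narrower than 60 kb. Within 1 Mb of the first or last window of a chromosome 7.63% of windows were called, against 6.84% at 2 to 5 Mb and 2.51% beyond 10 Mb. Windows over 60 kb wide made up 19.2% of windows within 1 Mb of an end and 5.81% beyond 10 Mb. Among windows of 60 kb the share called was 2.98%, and among those over 100 kb it was 16.4% (1503 windows), with 31% at Bud. Windows under 60 kb wide were called in 14.9% of cases (75 of 502), with 12.9% at Bud. The part of window width in the pattern along chromosomes was not tested. Fitted separately, windows of 60 kb alone gave 4011 calls among 108492 windows (3.7%). In the fit of all windows, 3237 of these windows (2.98%) were called.

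The long arm of chromosome 4, taken from 28000000, is known in zebrafish for its repeats, its heterochromatin and its many copies of related genes. It held 1808 windows, of which 120 were higher and 161 lower in omf201, together 15.5%. The rest of the chromosome had 2.02% called. At Bud the arm had 29.2% called. The share of all counts that fell on the arm was 1.357%, 1.347%, 1.375% and 1.36% in WT replicates 1 to 4. In omf201 replicates 1 to 4 it was 1.305%, 1.339%, 1.369% and 1.336%, so the groups overlapped. The means were 1.36% ± 0.0116 and 1.34% ± 0.0262 (SD, n = 4 each), a log2 difference of -0.0241 that was not larger than the spread between replicates (two-sided exact permutation p = 0.2). The difference changed sign, to 0.0141, when windows of 60 kb alone were used (exact permutation p = 0.0571).

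The shares of counts on single chromosomes differed by small amounts. A sum does not tell a shift of a whole chromosome from differences in parts of it. Shares also add up to the whole, so a rise in some lowers others. Counts were summed over windows that do not overlap, and log2 shares were tested with limma. At an adjusted p under 0.05 over the 25 chromosomes, 5 were called (20%), 3 higher and 2 lower, and 9 had an unadjusted p under 0.05. The largest change of any chromosome was 1.8% of its share and the median was 0.432%.

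Chromosome 19 carried the largest shift. Its share of counts was 3.751%, 3.748%, 3.772% and 3.762% in WT replicates 1 to 4, and 3.847%, 3.827%, 3.797% and 3.835% in omf201 replicates 1 to 4. Every omf201 library was above every WT library. The log2 difference was 0.0258 ± 0.0038 (SE, n = 4 each, limma adjusted p = 0.000184). The omf201 library nearest to WT was replicate 3, the one that lay lower over 4 bins of this chromosome. The WT library nearest to omf201 was also replicate 3. It lay 0.12 and 0.14 above the other WT libraries in the bins from 23000000 and 24000000, where omf201 replicate 3 lay at -0.16 and -0.2. Both groups thus varied within this region.

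On chromosome 22 the share rose from 2.944% ± 0.0171 to 2.978% ± 0.0122 (SD, n = 4 each), a change of 1.15% (limma adjusted p = 0.00886). WT replicate 1 was the lowest library there, at 2.919% against 2.948% to 2.955% in the other WT libraries. The chromosome was also called without WT replicate 1. Chromosome 21 rose by 0.907%, from 3.466% ± 0.00876 to 3.498% ± 0.0102 (SD, n = 4 each, limma adjusted p = 0.00776).

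Chromosome 25 was lower in omf201. It had 2.784%, 2.769%, 2.792% and 2.789% of the counts in WT replicates 1 to 4 and 2.752%, 2.751%, 2.749% and 2.754% in omf201. The groups did not overlap, and the log2 difference was -0.0168 ± 0.0031 (SE, n = 4 each, limma adjusted p = 0.000972). Chromosome 7 had 5.51% to 5.512% in WT and 5.468% to 5.486% in omf201, a change of -0.583% (limma adjusted p = 0.0438). Its call was lost when WT replicate 1, 2, 3 or 4 or omf201 replicate 1, 2 or 4 was left out, each in turn. Chromosomes 19, 21, 22 and 25 were called in all 8 of those fits.

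Exact permutation tests of single chromosomes called none, since 4 against 4 libraries cannot go below p = 0.0286 and the smallest adjusted value over 25 chromosomes was 0.119. The 2 groups of libraries did not overlap on 6 chromosomes, the 5 called and chromosome 15. At Bud the sign of the change was the same on 22 of the 25 chromosomes. Chromosomes 3, 4, 19, 21 and 25 were called there (20%), with 0.898% for chromosome 19, 2.3% for chromosome 21 and -1.18% for chromosome 25.

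**Figure D2:**
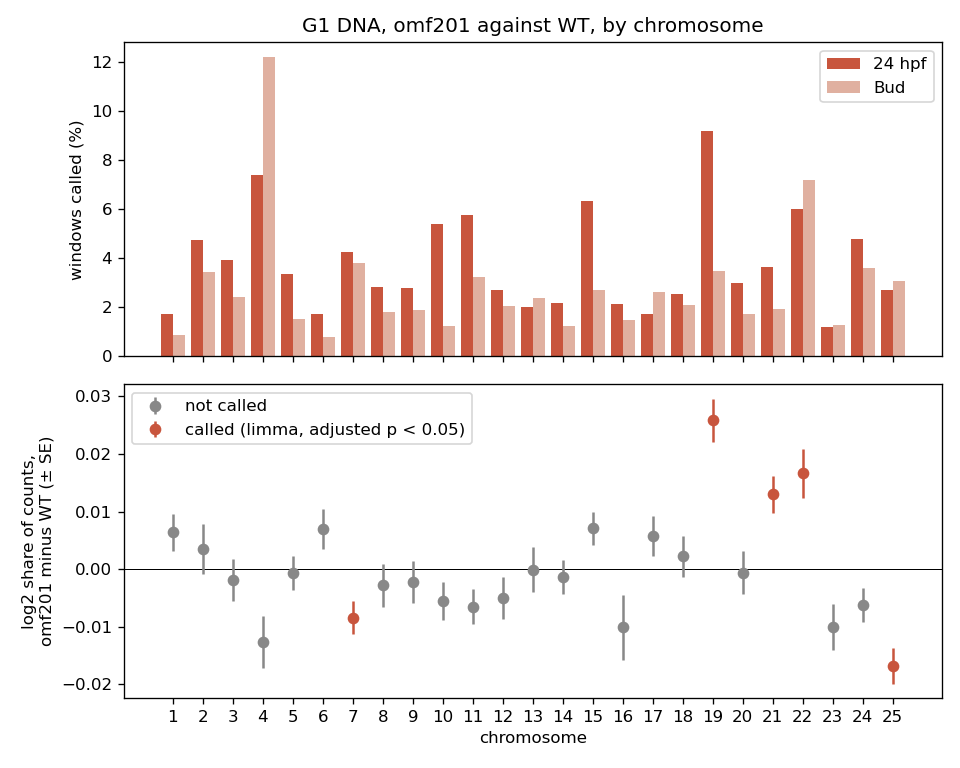
Top, percent of windows called in G1 counts by chromosome at 24 hpf (dark bars) and Bud (light bars). Bottom, log2 share of counts at 24 hpf, omf201 minus WT, with the SE from limma and n = 4 libraries of each genotype. Chromosome 19 has the highest bar at 24 hpf, 9.19%, and the largest shift, 0.0258, and the other called chromosomes are 7, 21, 22 and 25.

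The longest runs and the runs with the largest differences were described library by library. By the rule for naming runs there were 23, 11 higher and 12 lower. They were picked for being called, so their differences at 24 hpf are larger than those of regions taken at random. Values below are relative counts, a library's mean count over the run divided by its mean over all windows, so 1 is the average window. They were not scaled for window width. In 21 of the 23 runs the libraries of the 2 genotypes did not overlap at 24 hpf. Of single windows, 9.05% of all and 88.9% of those called did not overlap, so this count largely follows from the selection. Within 5 Mb of the first or last window of a chromosome lay 11 of the runs, and 16.9% of all windows did. Windows averaged over 60 kb in 11 of the runs and under 60 kb in 3, whereas 90.3% of all windows were 60 kb wide. Genes under the runs were not analysed here.

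The deepest reduction lay on chromosome 3, where 3 named runs that overlap at their edges covered 56470000 to 56880001. In the central run, 56610000 to 56750001, WT replicates 1 to 4 had relative counts of 1.09, 1.22, 1.23 and 1.22. The omf201 replicates 1 to 4 had 0.914, 0.647, 0.769 and 0.791. All WT libraries were above 1 and all omf201 libraries below it, and omf201 replicate 2 was the lowest. The windows of this central run averaged 45 kb, under the usual 60 kb, so a value below 1 need not be low for their width. The mean log2 fold change over its 8 windows was -0.61, a change of -34.4%, and the largest adjusted p of a window was 0.000611 with edgeR. The flanking runs had -0.38 over 12 windows and -0.44 over 11 windows, again with omf201 replicate 2 lowest.

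The longest run of either direction was on chromosome 10, from 2480000 to 3010001, with 45 windows. WT replicates 1 to 4 had 1.02, 1.05, 1.06 and 1.09, and the omf201 replicates had 0.909, 0.913, 0.951 and 0.932. The difference was modest and even, with a mean log2 of -0.18 (-11.8%). Chromosome 14 had a similar run from 2450000 to 2700001, where WT libraries had 0.979 to 1.01 and omf201 libraries 0.863 to 0.882. On chromosome 15, from 2540000 to 2810001, WT libraries had 0.998 to 1.03 and omf201 libraries 0.858 to 0.919. All 3 of these runs lie within 5 Mb of a chromosome's first window.

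On chromosome 19, from 3200000 to 3320001, both genotypes had relative counts below 1, in windows that averaged 72 kb. WT replicates 1 to 4 had 0.86, 0.908, 0.826 and 0.865, and the omf201 replicates had 0.692, 0.641, 0.646 and 0.658. The mean log2 was -0.39 (-23.9%), opposite to the change in the chromosome's share of counts. On chromosome 7, from 71360000 to 71460001, WT libraries had 1.05 to 1.15 and omf201 libraries 0.784 to 0.869, a mean log2 of -0.38. The windows of this chromosome 7 run averaged 80 kb.

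In 2 lower runs the WT libraries were spread widely. On chromosome 6, from 51830000 to 51970001, WT replicates 1 to 4 had 1.37, 1.29, 0.989 and 0.902, whereas the omf201 replicates lay together at 0.825, 0.848, 0.872 and 0.859. The mean log2 was -0.44, it was -0.33 without WT replicate 1, and DESeq2 called none of its windows. On chromosome 7, from 1550000 to 1780001, WT replicates 1 to 4 had 1.1, 1.03, 0.971 and 0.895 and the omf201 replicates 0.849 to 0.863. There the SD was 0.0885 among WT and 0.00595 among omf201 libraries (n = 4 each). Windows averaged 96 kb in the chromosome 6 run and 91.4 kb in this chromosome 7 run. The remaining lower runs were on chromosome 10 from 34000000, with a mean log2 of -0.27, and on chromosome 11 from 6040000, with -0.15. In the chromosome 11 run 4.35% of windows were called without omf201 replicate 4, 17.4% without omf201 replicate 2 and 47.8% with DESeq2.

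Among higher runs the largest difference was on chromosome 20, from 55010000 to 55150001, close to the last window of the chromosome. WT replicates 1 to 4 had 0.703, 0.83, 0.9 and 0.686, and the omf201 replicates had 1.13, 1.21, 1.09 and 1.07. Every WT library was below 1 and every omf201 library above it. The windows of this run averaged 44.4 kb, under the usual 60 kb, so a value below 1 need not be low for their width. The mean log2 over 9 windows was 0.52 (43.5%), and the largest adjusted p of a window was 0.00417 with edgeR. The run beside it, from 54840000, had 0.798 to 0.999 in WT and 1.08 to 1.32 in omf201.

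On chromosome 15, from 42000000 to 42140001, WT replicates 1 to 4 had 0.808, 0.808, 0.809 and 0.836. The omf201 replicates were higher and more spread, at 1.21, 0.986, 1.23 and 1.05, with replicates 1 and 3 apart from 2 and 4. The mean log2 was 0.45 (37%). On chromosome 8, from 45550000 to 45670001, WT libraries had 0.781 to 0.944 and omf201 libraries 1.02 to 1.22, a mean log2 of 0.44. Windows averaged 92 kb in this chromosome 15 run and 86.7 kb in the chromosome 8 run, over the usual 60 kb.

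The groups overlapped in 2 higher runs. On chromosome 9, from 52390000 to 52640001, WT libraries had 0.78 to 0.853, and omf201 replicates 1 to 4 had 1.24, 1.14, 0.805 and 1.02. Replicate 3 thus lay within the WT range, and the mean log2 of 0.38 was 0.49 without it. Of the 19 windows, 10.5% were called with DESeq2, and under 50% without WT replicate 2 or 3 or omf201 replicate 1, 2 or 4. On chromosome 19, from 27530000 to 27630001, WT replicate 3 had 1.1 against 0.855 to 0.972 in the other WT libraries, and omf201 replicate 3 had 1.02 against 1.29 to 1.37. The mean log2 of 0.4 rested on 3 windows, which averaged 80 kb. Of these windows, 33.3% were called with DESeq2 or without omf201 replicate 4.

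The long higher runs were modest in size. From 3920000 to 4180001 on chromosome 22, WT replicates 1 to 4 had 0.982, 0.869, 0.841 and 0.916, and the omf201 replicates had 1.06, 1.06, 1.06 and 1.03. WT replicate 1, which lay 0.1 above the other WT libraries over the bin from 4000000 and deviated in other bins of this chromosome, was the WT library nearest to omf201, and the mean log2 of 0.22 was 0.27 without it. On chromosome 11, from 43720000 to 43970001, WT libraries had 0.91 to 0.945 and omf201 libraries 1.03 to 1.05. On chromosome 20, from 8690000 to 8980001, the ranges were 0.921 to 0.981 and 1.03 to 1.09, in windows that averaged 78.1 kb. The 2 runs on the long arm of chromosome 4, from 53130000 and from 56880000, had mean log2 values of 0.17 and 0.21 and consisted of windows that averaged 180 and 156 kb. Without omf201 replicate 4, 33.3% of the windows of the first were called.

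**Figure D3:**
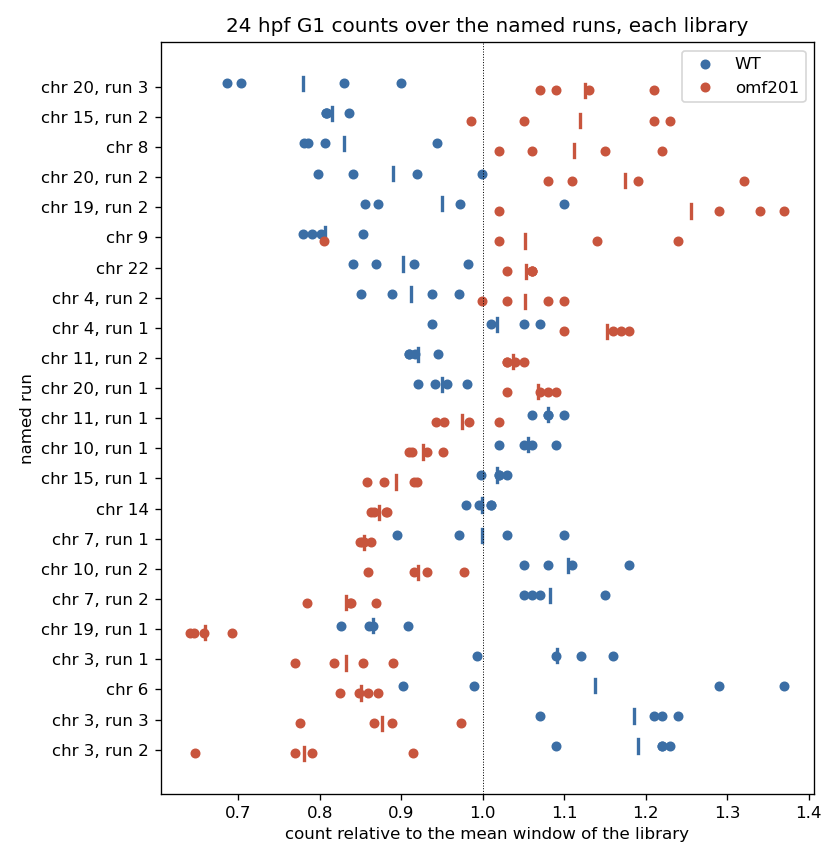
Relative counts (count over the run divided by the mean window of the library) of each 24 hpf G1 library over the 23 named runs, ordered by the difference. Blue points are WT, red points omf201, and bars the means of 4 libraries. The runs were picked for being called in these libraries. Points of the 2 genotypes are separate in 21 runs and overlap in the chromosome 9 run and the second chromosome 19 run.

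Called and uncalled windows were compared in their spread within a genotype, over windows that do not overlap. The median SD of log2 counts between WT libraries was 0.0549 in 824 called windows and 0.0442 in 19636 uncalled ones. Between omf201 libraries it was 0.0454 and 0.04. The regions that differed between genotypes thus also varied somewhat more among libraries of 1 genotype. These SDs come from the same libraries that made the calls and are a description, without a test.

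The G1 libraries of the Bud stage are separate libraries, and they were used to ask whether the 24 hpf differences recur. Their depth was lower, 6.6 to 14.2 M counts. There, 3245 windows (2.7%) were called, 1395 higher and 1850 lower. Of the 1423 runs defined at 24 hpf, 1342 (94.3%) had the same direction at Bud, whereas 61.1% of 19636 uncalled windows did. These shares are of unlike units, since a run can average several windows and neighbouring runs can overlap. The runs are thus not 1423 independent cases. At least 1 window was called at Bud in 547 runs (38.4%). Taken in the 24 hpf direction, the median difference over the runs at Bud was 0.12 in log2, against 0.16 at the stage that had selected them. Across 20460 windows the genotype differences of the stages had a Pearson correlation of 0.572, a description over windows that share mappability and base composition.

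All 23 named runs had the same direction at Bud, and in 16 of them the 4 omf201 and 4 WT libraries did not overlap. Of all windows, taken singly and not averaged over runs, 7.12% did not overlap at Bud. Of the 297 windows in the named runs, 127 were called at Bud in the fit of all windows. Every window of 9 of the runs was among them, and 4 runs held none. By comparison, 2.7% of all windows were called at Bud. Windows within a run share reads and some named runs overlap at their edges, so neither windows nor runs are separate cases. In the central chromosome 3 run, relative counts at Bud were 1.05 to 1.21 in WT and 0.736 to 0.873 in omf201, a log2 difference of -0.48. In the chromosome 15 run from 42000000 they were 0.808 to 0.853 and 1.06 to 1.15, a difference of 0.39. The chromosome 6 run, which was spread in WT at 24 hpf, was tighter at Bud, with 1.09 to 1.16 in WT and 0.816 to 0.907 in omf201.

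Not every named run was separate or called in the Bud G1 libraries, which were shallower. The longest run, on chromosome 10 from 2480000, had 0.994 to 1.07 in WT and 0.947 to 1.06 in omf201 in Bud G1. None of its 45 windows was called there, though its groups were separate in the libraries not sorted for G1, described below. The chromosome 4 run from 56880000 had a log2 difference of 0.02 at Bud, with overlapping groups, against 0.2 at 24 hpf. Whether the genotype difference changed between stages was tested directly. The genotype by stage interaction over the 16 G1 libraries was called in 1 window (0.000833%) with edgeR. Of the 120082 windows tested, 5897 had an unadjusted p under 0.05. No run called at 24 hpf held an interaction call, so a change between stages was not shown for any run. The 1 window spanned 7870000 to 7970001 on chromosome 7, where the genotype difference was 0.11 at 24 hpf and -0.46 at Bud (interaction log2 0.57, edgeR adjusted p = 0.0282). Without omf201 replicate 2 there was no interaction call, without omf201 replicate 3 there were 5, and without WT replicate 3 or omf201 replicate 1 there were 6.

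**Figure D4:**
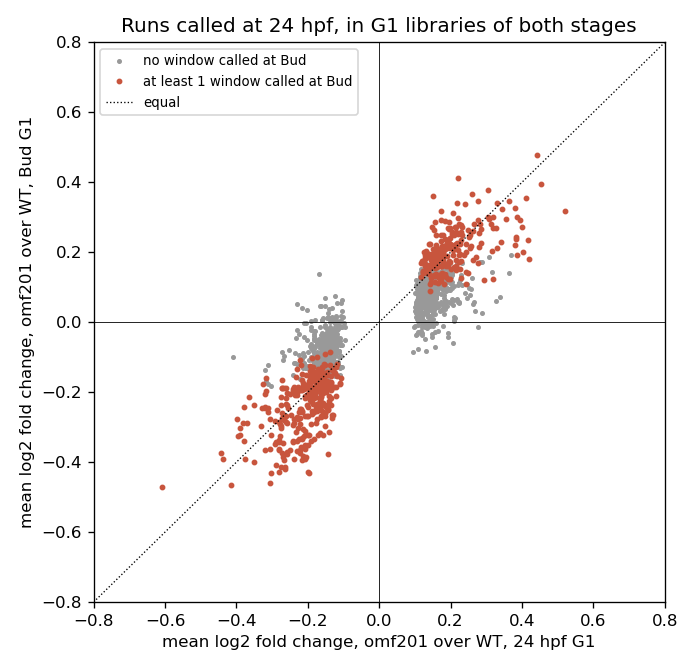
Mean log2 fold change of G1 counts, omf201 over WT, of the 1423 runs called at 24 hpf, at 24 hpf (horizontal) and at Bud (vertical). Red points had at least 1 window called at Bud. Of the runs, 1342 lie in the quadrants of equal sign, and the 24 hpf values are on the whole farther from 0.

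The named runs were also followed in libraries that were not sorted for G1. In these, genotype differences in replication timing add to differences in G1 copy number. The counts are therefore given against the share of all windows in which the genotypes did not overlap. That share is of single windows, whereas a run value averages several, so they are not like for like. No such share is given for direction. S-phase and G1 libraries of a stage carry the same replicate numbers, and the labels do not say whether they come from the same embryos. The 24 hpf S-phase libraries may therefore not be independent of the G1 libraries that selected the runs. Over the chromosome 6 run, WT libraries ranged from 0.902 to 1.37 in 24 hpf G1 and from 0.821 to 1.23 in 24 hpf S phase. In S-phase nuclei of 24 hpf embryos, all 23 runs had the G1 direction and 18 did not overlap, where 53.2% of all windows did not overlap. In Bud S-phase nuclei 22 had the G1 direction, and 17 did so without overlap (28.1% of all windows did not overlap). In whole embryos at Shield (6 hpf), 21 had the G1 direction, 15 of them without overlap (24.9%). For Shield, 3 pairs of libraries that differed by no more than sampling noise were averaged, which left 4 samples of each genotype. Their chi-square values per degree of freedom were 0.958 to 1.09, and those of the other pairs 1.52 to 4.36.

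In whole embryos before the mid-blastula transition (preMBT, 2 to 2.5 hpf), 21 of the 23 runs had the G1 direction, 19 of them without overlap, and 19.8% of all windows did not overlap. These 3 libraries of each genotype differed by about sampling noise (chi-square over degrees of freedom 0.953 to 1.1), so their spread may leave out that between embryo pools. Unlike the Shield pairs, these libraries were not averaged, so a lack of overlap at preMBT is set mostly against sampling noise. Differences here are of mean log2 relative counts. The chromosome 7 run from 71360000 had a difference of -0.33 at preMBT and -0.27 at Shield, near its G1 values of -0.34 at Bud and -0.38 at 24 hpf. The chromosome 19 run from 3200000 had -0.32 at preMBT, -0.43 at Shield, -0.32 in Bud G1 and -0.39 in 24 hpf G1. Both runs kept the direction and did not overlap in any of the sets. The central chromosome 3 run had -0.16 at preMBT and -0.36 at Shield, smaller than its -0.62 in 24 hpf G1. On chromosome 20 the run from 55010000 had 0.08 at preMBT, 0.1 at Shield and 0.32 in Bud G1, and the groups overlapped at Shield. The chromosome 4 run from 56880000 had the opposite direction at preMBT, -0.08, with separate groups. The longest run, on chromosome 10 from 2480000, had -0.17 at preMBT and -0.25 at Shield. In S-phase nuclei it had -0.17 at Bud and -0.27 at 24 hpf, and the groups were separate in each of these sets.

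Dividing S-phase counts by G1 counts of the same genotype, as the deposited ratios do, changed the picture at these runs. Recomputing a deposited ratio from the counts showed that its denominator was the median of the 8 G1 libraries of the genotype, each scaled to its mean, from Bud and 24 hpf together. The largest relative difference from the deposited ratio was 4.84e-07. The 24 hpf G1 libraries that selected the runs are thus part of the denominator, and what follows is a description. Over the 23 runs, the median log2 difference of 24 hpf S-phase counts was 0.3 in the G1 direction, and that of the deposited ratios was 0.06. In 14 runs the ratio differed in the G1 direction and in 9 against it.

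The central chromosome 3 run shows the step. Its relative count in S-phase nuclei was 0.92 ± 0.074 for WT and 0.682 ± 0.104 for omf201 (SD, n = 4 each), a log2 difference of -0.44. The deposited ratio was 0.777 ± 0.0619 for WT and 0.857 ± 0.131 for omf201, a log2 difference of 0.14 with the opposite sign. On chromosome 8 the S-phase difference of 0.44 became -0.08 in the ratio. On chromosome 22 the run from 3920000 kept its direction, with 0.47 in S-phase counts and 0.26 in the ratio, from 0.925 ± 0.0706 in WT to 1.11 ± 0.0168 in omf201. The chromosome 20 run from 54840000 likewise had 0.56 and 0.26.

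To see whether 24 hpf G1 counts followed replication timing, windows were divided into 5 equal classes by a WT profile. It was made of 24 hpf S-phase and Bud G1 libraries and contains no 24 hpf G1 library. Its S-phase libraries are of WT embryos of the same stage, so copy number shared with the WT G1 libraries can enter both. Classes are given for the WT profile only. In the earliest class 30 of 4092 windows were higher and 58 lower in omf201, together 2.15%. In the latest class 135 were higher and 99 lower, together 5.72%, and the share was higher in each class than in the class before it. The median log2 difference went from -0.0089 in the earliest to 0.0078 in the latest class. Both are small beside the smallest called difference, 0.094.

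A slope of log2 G1 counts on the profile was taken for each library, after the mean of the Bud G1 libraries was subtracted. WT replicates 1 to 4 had slopes of 0.0226, -0.0043, 0.006 and 0.0045, and the omf201 replicates had -0.0162, -0.008, -0.0185 and -0.0226. All omf201 slopes were below all WT slopes, and WT replicate 1 was the highest. The means were 0.00719 ± 0.0112 and -0.0163 ± 0.00614 (SD, n = 4 each), a difference of -0.0235 (two-sided exact permutation p = 0.0286, the smallest that 4 against 4 libraries allow). The result depended on the profile. With a profile of the omf201 libraries the difference was 0.0086 (exact permutation p = 0.2), and with the Shield WT profile it was -0.011 (exact permutation p = 0.171). Across windows, the genotype difference of G1 counts had a Pearson correlation of -0.0811 with WT timing (20460 windows, a description).

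**Figure D5:**
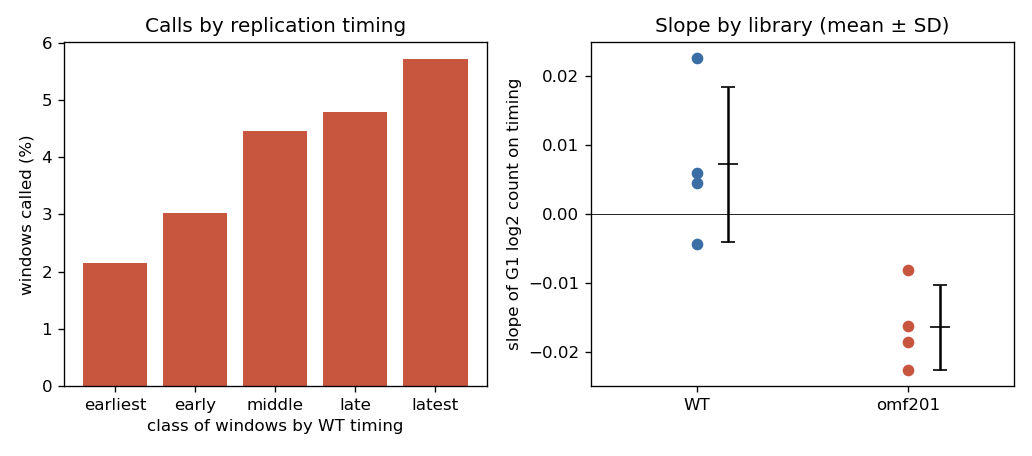
Left, percent of windows called in 24 hpf G1 counts in 5 equal classes of 20460 windows ordered by the WT timing profile, from 2.15% in the earliest to 5.72% in the latest. Right, slope of log2 G1 counts on that profile for each library (points) with the mean and SD of 4 libraries. The 4 omf201 slopes lie below the 4 WT slopes.

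The *rif1* gene is on chromosome 9 in the RefSeq annotation of the GRCz12tu assembly. That assembly differs from the one of the windows, so the position of the gene among the windows was not used here. Chromosome 9 had 2.78% of its windows called, 83 higher and 62 lower, against 3.67% in the whole genome. Its 45 runs, 21 higher and 24 lower, had a median length of 80 kb, and the longest spanned 250 kb. The densest bins were 52000000 to 53000000, with 32 of 87 windows called, 3000000 to 4000000 with 22 of 100, and 54000000 to 55000000 with 19 of 89. All calls in the first pair of these bins were higher in omf201, and in the third 11 were higher and 8 lower. The share of counts on chromosome 9 was 4.327% ± 0.0227 for WT and 4.321% ± 0.0098 for omf201 (SD, n = 4 each, limma adjusted p = 0.704), with overlapping groups.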

How the data were processed

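Genomic DNA of sorted G1 nuclei was sequenced. Reads were processed with fastp, BWA and Picard on GRCz11, per the submitters' processing notes, and the series' design text names RepliTimer v1.0.11. Other settings are not given in the sources used here. The authors deposited raw counts per window and, from them, the ratio of each library to a G1 reference. Their smoothed, log-scale and z-score tables were not used.

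Window counts were tested with edgeR 4.0.16 in R 4.3.3 (quasi-likelihood, TMM scaling, filterByExpr, which removed 0 windows, and Benjamini-Hochberg adjustment over 120082 windows). Each fit held the libraries compared, without covariates, and the interaction fit the 16 G1 libraries. For chromosome sums edgeR had been planned, but it returned negative F statistics for 2 of 25 chromosomes, so limma 3.58.1 on log2 shares took its place. Single values per library were compared by two-sided exact permutation tests. The edgeR script was tested on simulated data. Python 3.11.15, numpy 2.4.6, scipy 1.17.1, pandas 2.3.3 and matplotlib 3.10.9 were also used.

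Named were the 6 longest runs in each direction, the 6 with the largest mean log2 in each direction among runs of at least 3 windows, and any run at or above 0.58 or at or below -1. Alternatives were DESeq2 1.42.0, library size scaling, no low-count filter, windows that do not overlap, 1-Mb bins, a fit of 16 libraries, the replicate number as a block, a size minimum and leaving out each library. The fit of 60 kb windows alone and the limit of 1.1 for averaging Shield libraries were chosen after seeing the data. The libraries, lists and rules were chosen with earlier results of these data known. Replicate numbers were not used as pairs, since the labels do not say what a shared number means. In a later check, same-numbered WT and omf201 libraries did not deviate together from their group means (correlations from -0.0146 to 0.0102).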

Additional observations from a re-analysis of the deposited data

Results flagged for a closer look

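In 5 of 102 groups of 4 libraries, the gap between 1 library and the rest was above the Dixon limit for 4 values. About 5% of groups exceed that limit by chance. All 5 were WT groups over named runs. Over the chromosome 3 run from 56610000, WT replicate 1 had a relative count of 1.088 against 1.223 to 1.231 (gap 0.944 of the whole range). Over the adjoining run from 56720000 it had 1.074 against 1.214 to 1.238 (gap 0.858). These runs overlap, so the cases are not independent. WT replicate 4 had 0.9443 over the chromosome 8 run from 45550000, against 0.7806 to 0.8073 (gap 0.837), and 0.8364 over the chromosome 15 run from 42000000, against 0.8078 to 0.8086 (gap 0.973). It was the shallowest library, with 17.2 M counts (M, mega), and whether depth played a part was not tested. WT replicate 3 had 0.9976 over the chromosome 15 run from 2540000, against 1.022 to 1.026 (gap 0.852).

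The genotype difference of G1 counts was called as changed between Bud and 24 hpf, by the interaction test, in 1 of 120082 windows. Without omf201 replicate 2 there was no interaction call. The window, on chromosome 7 from 7870000 to 7970001 (edgeR adjusted p = 0.0282), was not called at 24 hpf alone. At 24 hpf its relative counts were 0.794, 0.931, 0.95 and 0.929 in WT replicates 1 to 4 and 0.927, 1.03, 0.993 and 0.912 in omf201. At Bud they were 1.22, 1.36, 1.22 and 1.19 in WT and 0.851, 1.07, 0.819 and 0.927 in omf201.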

How the results depend on the processing

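The count of 4411 windows (2297 higher, 2114 lower) kept within 1.5 times with library size alone, without the low-count filter, in a fit of 16 libraries (6085), with windows of 60 kb alone and with the replicate number as a block (replicate block, 4405). It moved further with DESeq2 (2663; 1327 higher, 1336 lower) and with a size of at least 0.2 (1235; 611 and 624). With fewer features tested it was 827 among windows that do not overlap (433 and 394; 4.04%) and 163 among 1-Mb bins (81 and 82; 12%). Leaving out 1 library gave 2165 to 4256 windows, 1133 to 2185 higher and 1032 to 2071 lower. Chromosomes called were 5, 0 by exact permutation tests and 4 to 6 without 1 library. The log2 difference of the chromosome 4 long arm, -0.0241, changed sign with windows of 60 kb alone (0.0141) and was -0.0355 to -0.0126 without 1 library. The timing slope difference, -0.0235, was 0.0086 with the omf201 profile, -0.011 with the Shield profile, and -0.0273 to -0.0184 without 1 library, where 4 against 3 cannot go below an exact permutation p of 0.0571. Interaction calls, 1 window, were 3 with library size alone, 6 with the replicate block and 0 to 6 without 1 library. The named runs were picked for being called in these same libraries, so what follows for them is a description. Of their run values under other settings, 240 kept their direction with at least 50% of windows called, 13 fell below that and 0 reversed. The causes of these changes were not tested, apart from the fewer features or libraries named. The block result cannot show whether libraries of the same number are paired, since it is only a count of calls. The region around *rif1* was not run.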
